A study of Mus musculus with 3 samples.

Results

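The 3 genes described here, Kcnc1, Kcnc2 and Kcnc4, encode pore-forming subunits of Kv3 voltage-gated potassium channels. They were picked by gene name from the 32531 gene symbols counted in each library, and each of the 3 was counted in every library. The libraries hold RNA bound to tagged ribosomes (translating ribosome affinity purification, TRAP) from the deep nuclei, through which the cerebellum sends its output. All 3 came from adult mice of the Htr6-TRAP NIDA113 line on the C57BL/6J strain, in which the ribosomal protein L10a carries EGFP and the line takes its name from the serotonin receptor gene Htr6. The immunopurified (IP) samples form 1 group with replicates 1 to 3, and neither input RNA nor a second line was analysed here, so the comparisons are between genes within a library. Whether each library came from a different animal is not stated in the labels, and the p-values measure only the spread between these samples, which may be technical.

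Kv3 channels open only at strongly depolarised membrane potentials and close very fast on repolarisation, which keeps action potentials short and lets neurons fire at high rates. The channel is a tetramer of subunits, which may be of 1 kind or of several Kv3 kinds. Kcnc1 (Kv3.1) and Kcnc2 (Kv3.2) give sustained delayed rectifier currents, whereas Kcnc4 (Kv3.4) gives a current that inactivates quickly through its N-terminus. In the cerebellum, Kv3.1 is known from granule cells and neurons of the deep nuclei, and Kv3.4 from Purkinje cells and the terminals of basket cells. Kv3.2 is best known from thalamic neurons and fast-spiking interneurons of the forebrain.

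The libraries held 7622010 to 8842058 counts assigned to genes, and a count of 0 allows a level of up to 0.340 to 0.397 CPM (counts scaled to 1000000 per library; a limit of 3 counts, counting error only). The vesicular glutamate transporter gene Slc17a6, which glutamatergic neurons of the deep nuclei use, had 1977 to 2978 counts per library, while Lmx1b was at 0 among the 9 glutamatergic deep nuclei markers. Markers of the cerebellar cortex were also abundant. Granule cell markers summed to 3806 to 4464 CPM per library and Purkinje cell markers to 6078 to 8011 CPM, against 479 to 740 CPM for the glutamatergic deep nuclei markers. Of the 10 Purkinje cell markers, 5 reached 100 CPM. Itpr1 alone was at 3148 to 3934 CPM, while Pcp4 was at 0.128 to 0.662 CPM. Markers of 2 glial lists were abundant too, with sums of 2890 to 3662 CPM for oligodendrocytes and 2429 to 2790 CPM for astrocytes and Bergmann glia. The 6 microglia markers summed to only 15.3 to 32.7 CPM, with C1qa, Aif1 and Trem2 at 0 counts. The share of these cell types in the Kv3 counts was not tested. In bulk RNA of this kind, fewer cells of a type and less RNA per cell cannot be told apart.

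Kcnc1 was the most abundant of the 3 genes and the steadiest between libraries. It had 4336, 4682 and 4599 counts in replicates 1, 2 and 3, or 574, 531 and 590 CPM. Replicate 2 was the lowest, and its exact 95% Poisson interval (516 to 547 CPM) lay apart from those of replicate 1 (557 to 591 CPM) and replicate 3 (573 to 607 CPM), which overlapped. Such intervals, here and for the other 2 genes, cover counting error only, beyond which 96.5% of the 11168 genes tested varied. The mean was 565 ± 30.4 CPM (SD, n = 3), a coefficient of variation (CV) of 5.37%. Per kb of exon, the level was 59.8 ± 3.21 CPM per kb, higher than that of 96.6% of the 12563 genes with at least 10 counts and a known exon length.

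Kcnc1 (ENSMUSG00000058975.7) lies on the plus strand of chromosome 7, positions 46396497 to 46438704 in mm10, with 9458 bases of annotated exon. Its 2 coding transcripts in the annotation encode 511 and 585 residues, the lengths of the splice forms known as Kv3.1a and Kv3.1b, which differ in their C-terminal ends. Counts per gene do not separate these forms. Of the 50-base stretches of its longest coding transcript, 0.778% also occur in a transcript of another gene, and no annotated gene overlaps it.

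Kcnc2 was far below Kcnc1 in every library and varied more. It had 285, 159 and 408 counts in replicates 1, 2 and 3, or 37.7, 18.0 and 52.4 CPM. Replicate 2 was the lowest and replicate 3 the highest, and no 2 of the 3 Poisson intervals overlapped. The mean was 36.0 ± 17.2 CPM and the CV 47.8%. Per kb of exon, the level was 5.05 ± 2.41 CPM per kb, above 56.4% of the same genes. Kcnc2 (ENSMUSG00000035681.7) lies on the plus strand of chromosome 10, positions 112271121 to 112467024, with 7138 bases of exon, and its longest coding transcript has 5 exons and encodes 642 residues.

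Kcnc4 resembled Kcnc2 in counts, and 1 library stood apart. It had 172, 144 and 476 counts, or 22.8, 16.3 and 61.1 CPM in replicates 1, 2 and 3. Replicate 3 was 3.74 times as high as replicate 2, and its interval (55.7 to 66.8 CPM) lay far above that of replicate 1 (19.5 to 26.4 CPM). The mean was 33.4 ± 24.2 CPM with a CV of 72.4%, and 19.3 CPM without replicate 3. Per kb of exon, Kcnc4 was at 9.11 ± 6.6 CPM per kb, above 70.3% of the same genes. Kcnc4 (ENSMUSG00000027895.9) lies on the minus strand of chromosome 3, positions 107438303 to 107459552, and its 1 annotated transcript has 4 exons and 3667 bases and encodes 628 residues. None of the 50-base stretches of the longest coding transcripts of Kcnc2 and Kcnc4 occurred in another gene, and no annotated gene overlaps either.

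**Figure D1:**
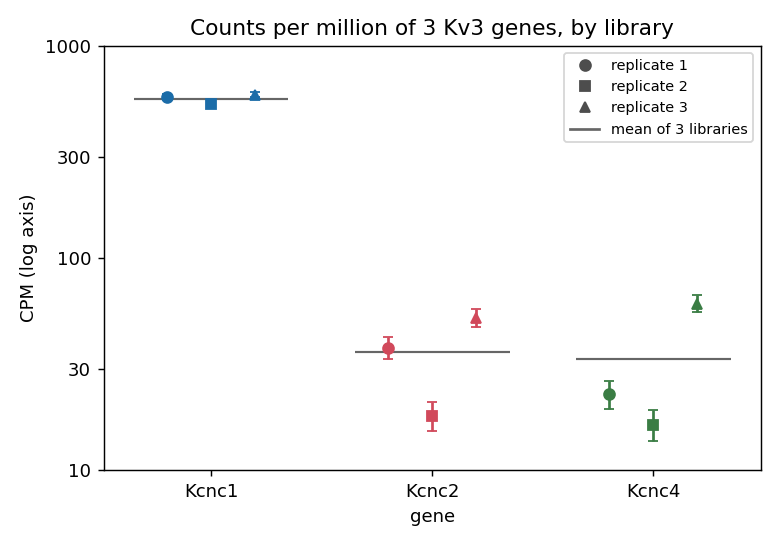
CPM of Kcnc1, Kcnc2 and Kcnc4 (log axis) in each of the 3 libraries, with exact 95% Poisson intervals (counting error only) and the mean as a line. All 3 genes are lowest in replicate 2 and highest in replicate 3, over a narrow range for Kcnc1 (531 to 590 CPM) and wider ones for Kcnc2 (18.0 to 52.4 CPM) and Kcnc4 (16.3 to 61.1 CPM).

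The promoters of the most abundant member and of the lower Kcnc2 are shown for their base composition. Each is the stretch of 250 bases before an annotated RefSeq start (GRCm38.p6, the assembly also called mm10), read 5′ to 3′. For Kcnc1 it is chr7:46396218-46396467 on the plus strand. For Kcnc2 it is chr10:112269767-112270016 on the plus strand, before the most upstream of its 4 starts. Capitals mark TGACG, the short core of the cyclic AMP response element, on either strand.
Kcnc1: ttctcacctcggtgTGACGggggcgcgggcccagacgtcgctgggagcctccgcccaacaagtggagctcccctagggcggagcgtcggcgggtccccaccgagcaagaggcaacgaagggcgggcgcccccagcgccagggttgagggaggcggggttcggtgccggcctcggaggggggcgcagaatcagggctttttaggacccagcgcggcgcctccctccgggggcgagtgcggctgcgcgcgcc
Kcnc2: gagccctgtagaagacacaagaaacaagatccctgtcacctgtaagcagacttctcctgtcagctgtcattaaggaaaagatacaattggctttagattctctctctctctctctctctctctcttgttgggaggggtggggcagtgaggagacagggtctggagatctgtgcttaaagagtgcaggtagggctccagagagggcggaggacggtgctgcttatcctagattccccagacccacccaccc
The Kcnc1 stretch held 30 CpG dinucleotides, more than 94.1% of 32851 promoter stretches of the same length, and the Kcnc2 stretch held 2, more than 18.8%. The stretches before the other 3 Kcnc2 starts, not printed, held 4 to 5 CpG, more than 37.8 to 44.4% of all stretches. TGACG, looked for on both strands, occurred 1 time before the Kcnc1 start and 0 times before the Kcnc2 start, and 17.8% of all promoter stretches hold it. The GC box GGGCGG, on both strands, occurred 3 times before the Kcnc1 start and 1 time before the Kcnc2 start, and 32.7% of all stretches hold it. The other 3 Kcnc2 stretches held neither TGACG nor GGGCGG. The Kcnc4 stretch, which lies inside the annotated gene and is not printed, held 12 CpG, more than 66.5% of all stretches. It held 1 TGACG and 1 GGGCGG. The full element TGACGTCA, which contains the TGACG core, was in none of these stretches and in 1.55% of all. These matches describe the letters and do not show binding.

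Kcnc1 took most of the counts of the 3 genes in every library. Its share of their total was 90.5% in replicate 1 (4336 of 4793 counts, exact 95% Clopper-Pearson interval 89.6 to 91.3%), 93.9% in replicate 2 (93.2 to 94.6%) and 83.9% in replicate 3 (82.9 to 84.8%). The mean was 89.4 ± 5.10% (SD, n = 3), and the 3 intervals, which cover counting error only, did not overlap. Beyond counting error, 96.5% of the 11168 genes tested varied in level between these libraries, so such gaps do not set these genes apart. Replicate 3 had the lowest share of Kcnc1 although the CPM of Kcnc1 was highest there, and Kcnc2 and Kcnc4 were both at their highest there too. The share of Kcnc2 was 5.95%, 3.19% and 7.44% in replicates 1, 2 and 3, a mean of 5.53 ± 2.16%. That of Kcnc4 was 3.59%, 2.89% and 8.68%, a mean of 5.05 ± 3.16%, or 3.24% without replicate 3. These are shares of the 3 genes, not of every Kv3 gene.

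Longer genes collect more reads per molecule, so the genes were also compared per kb of exon. On that scale Kcnc1 made up 84.1%, 88.9% and 72.2% of the total in replicates 1, 2 and 3 (81.7 ± 8.60%). Kcnc4, the gene with the least annotated exon, had a share of 8.60%, 7.06% and 19.3% (11.6 ± 6.66%). Kcnc2 held 7.32%, 4.0% and 8.49% (6.6 ± 2.33%). Kcnc4 thus had a smaller share of counts than Kcnc2 in replicates 1 and 2, and a larger share per kb than Kcnc2 in every library.

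**Figure D2:**
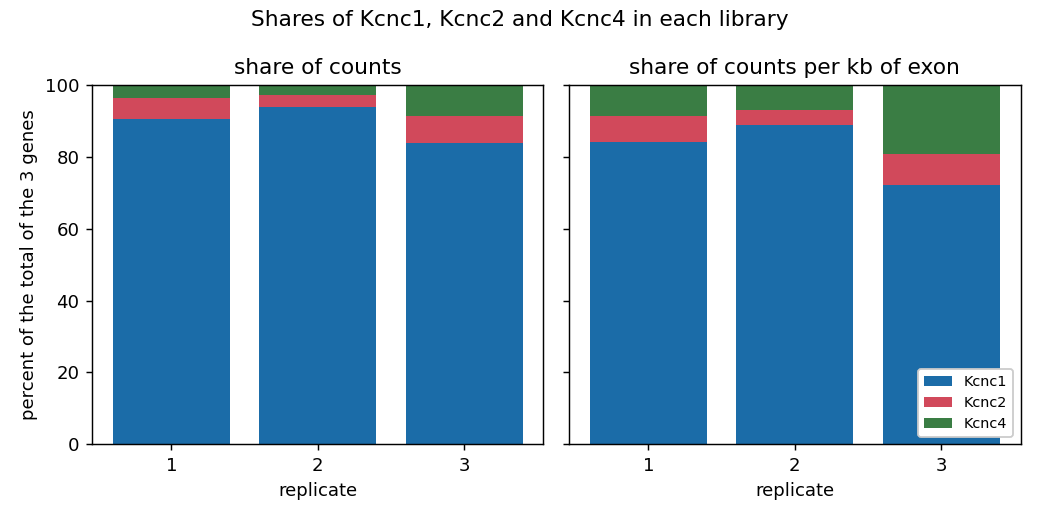
Stacked bars of the percent of the total of the 3 genes taken by Kcnc1, Kcnc2 and Kcnc4 in each library, by counts (left) and by counts per kb of exon (right). Kcnc1 takes 83.9 to 93.9% of counts and 72.2 to 88.9% per kb, and its share is lowest in replicate 3 on both scales.

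Within a library, Kcnc1 exceeded both other genes per kb of exon. The log2 difference of Kcnc1 minus Kcnc2 was 3.52, 4.47 and 3.09 in replicates 1, 2 and 3, a mean of 3.69 ± 0.71 (SD, n = 3) or 12.9-fold, with 0.5 counts added to each count. Kcnc1 minus Kcnc4 gave 3.28, 3.65 and 1.90, a mean of 2.95 ± 0.92 or 7.71-fold. Both differences were several times their SD and had Kcnc1 higher in 3 of 3 libraries. Kcnc2 minus Kcnc4 gave -0.23, -0.82 and -1.18, a mean of -0.75 ± 0.48, with Kcnc2 lower in 3 of 3 libraries. This last order depended on the length used. It was -0.24 with the length of the longest coding transcript, with Kcnc2 higher in 1 of 3 libraries, and 0.22 with no length scaling. An exact permutation test that flips signs (two-sided, 3 libraries) gave p = 0.25 for each of the 3 pairs (Benjamini-Hochberg adjusted p = 0.25), which is the smallest p that 3 libraries allow, so no pair could pass a threshold of 0.05.

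Each of the 3 genes varied between libraries beyond counting error, as did nearly all genes. In a Poisson chi-square test of the counts, 10773 of the 11168 genes that reached 10 counts in at least 2 libraries (96.5%) had a Benjamini-Hochberg adjusted p under 0.05, so a call for a Kv3 gene is near the background. The adjusted p was 1.3e-06 for Kcnc1, 9.15e-31 for Kcnc2 and 3.24e-62 for Kcnc4, with chi-square per degree of freedom of 13.7, 70.0 and 143. For Kcnc1 the call rested on replicate 2, since the adjusted p between replicates 1 and 3 alone was 0.216. By the dispersion of edgeR's quasi-likelihood fit over its trend, none of the 3 genes was called more variable than genes of its level (adjusted p = 0.999 for Kcnc1, 0.990 for Kcnc2 and 0.972 for Kcnc4). That test called 0 of the 11168 genes (0%) at an adjusted p under 0.05 and 477 (4.27%) at an unadjusted p under 0.05.

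Set beside genes of like abundance, the low spread of Kcnc1 stood at one end. Its CV of 5.37% was smaller than that of 95.6% of the 586 other genes within 2-fold of its mean CPM, whose median CV was 19.3%. Kcnc2, at 47.8%, was close to the median of 54.2% over 3751 such genes, and 58.7% of them had a larger CV. Kcnc4, at 72.4%, was above the median of 55.9% over 3778 genes, and 31.4% had a larger CV. These are descriptions over 3 libraries, with no test.

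**Figure D3:**
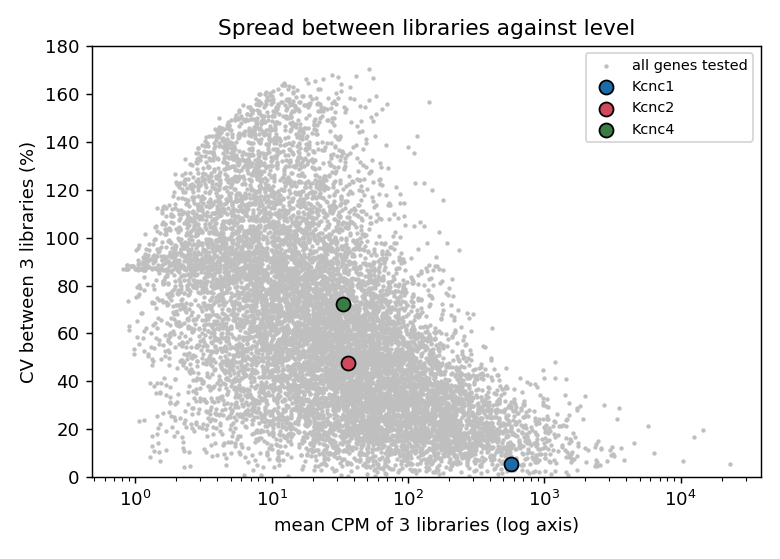
Coefficient of variation between the 3 libraries in percent against the mean CPM (log axis), with 1 grey point for each of the 11168 genes tested and the 3 Kv3 genes in colour. Kcnc1 lies at the lower edge of genes of its abundance at 5.37%, and Kcnc2 (47.8%) and Kcnc4 (72.4%) lie within the cloud.

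All 3 genes had the same order over libraries, lowest in replicate 2 and highest in replicate 3. For Kcnc1 the range was narrow (531 to 590 CPM), and the intervals of replicates 1 and 3 overlapped. Of the 11168 genes tested, 14.3% had that order. Among 10 marker lists of cerebellar cell types, only the summed level of the 6 GABAergic and glycinergic markers followed it, at 725, 406 and 945 CPM in replicates 1, 2 and 3. Within that list, 3 of 6 genes had the order: Gad2, an enzyme of GABA synthesis (400, 253 and 590 CPM), Slc6a5, the glycine transporter of glycinergic neurons (20.9, 6.58 and 43.8 CPM), and Pax2 (18.5, 8.97 and 55.6 CPM). Gad1 and Slc32a1 were also lowest in replicate 2 but highest in replicate 1, and Sox14 was at 0. The markers of glutamatergic neurons of the deep nuclei, at 740, 522 and 479 CPM, did not follow the order, nor did any of those 9 genes. Of the 10 Purkinje cell markers, 2 had the order. So did 1 gene each of the granule cell, molecular layer and Golgi interneuron, oligodendrocyte, and astrocyte and Bergmann glia lists. Over all 10 lists, 9 of 66 marker genes had it, a share near that of all genes tested. How often the sum of a list would take this order by chance was not tested. The part of these cell types in the levels of the 3 Kv3 genes was not tested.

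By profile over the 3 libraries, the genes nearest to each Kv3 gene were sought among 51 genes of potassium channels, Kv3 regulators and excitability. The measure was the largest difference, in any library, between log2(CPM + 1) values centred on each gene's mean. Nearest to Kcnc1 were Kcna1, a Kv1 channel gene (0.07), Nefh, the heavy neurofilament gene (0.10), and Csnk2a1, a catalytic subunit of casein kinase 2 (0.11). Nearest to Kcnc2 were the sodium channel gene Scn2a1 (0.14), Kcnc4 (0.50) and Pvalb, the calcium buffer of fast-spiking neurons (0.54). Nearest to Kcnc4 were Kcnab1, a Kv1 beta subunit gene (0.23), Kcnc2 (0.50) and Scn2a1 (0.54). Kcnab1 was at 69.4, 67.1 and 221 CPM, high in replicate 3 as Kcnc4 was. Likeness over 3 libraries is a description.

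Kcnc1 ranked 3rd, Kcnc4 10th and Kcnc2 13th by mean CPM per kb of exon among 39 voltage-gated potassium channel genes, of which 36 belong to other families. Among those 36 were 11 genes that no library held a count of, and with these included their median was 0.453 CPM per kb. The 12563 genes with at least 10 counts and a known exon length had a median of 3.94. That larger set leaves out genes without counts, so these medians are not directly comparable. Of these 39 genes, only Kcna1 (179 ± 11.3 CPM per kb) and Kcna2 (138 ± 10.4), Kv1 subunits of low-threshold axonal currents, were above Kcnc1 on average. Kcnc1 lay below Kcna2 by a log2 difference of -1.20 ± 0.16, lower in 3 of 3 libraries. The next gene below it was Kcng4, a silent subunit that joins Kv2 channels, at 58.3 ± 35.8 CPM per kb. Kcnc1 minus Kcng4 was 0.23 ± 0.87, within its SD, with Kcnc1 higher in 2 of 3 libraries. Their order was reversed in replicate 1, where Kcng4 was at 97.2 and Kcnc1 at 60.7 CPM per kb, and Kcnc1 ranked 4th without replicate 2 or without replicate 3.

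The ranks of the 2 lower genes were not resolved from the genes just above them. Kcnc4 minus Kcnh1, an ether-a-go-go channel gene just above it, was -0.29 ± 0.75, with Kcnc4 higher in 1 of 3 libraries. Kcnc4 ranked 12th in replicates 1 and 2 and 7th in replicate 3. Kcnc2 minus Kcnh2, just above it, was -0.19 ± 0.91, and Kcnc2 minus Kcnh7, just below it, was 1.80 ± 2.30. Kcnc2 ranked 13th, 16th and 11th in replicates 1, 2 and 3.

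**Figure D4:**
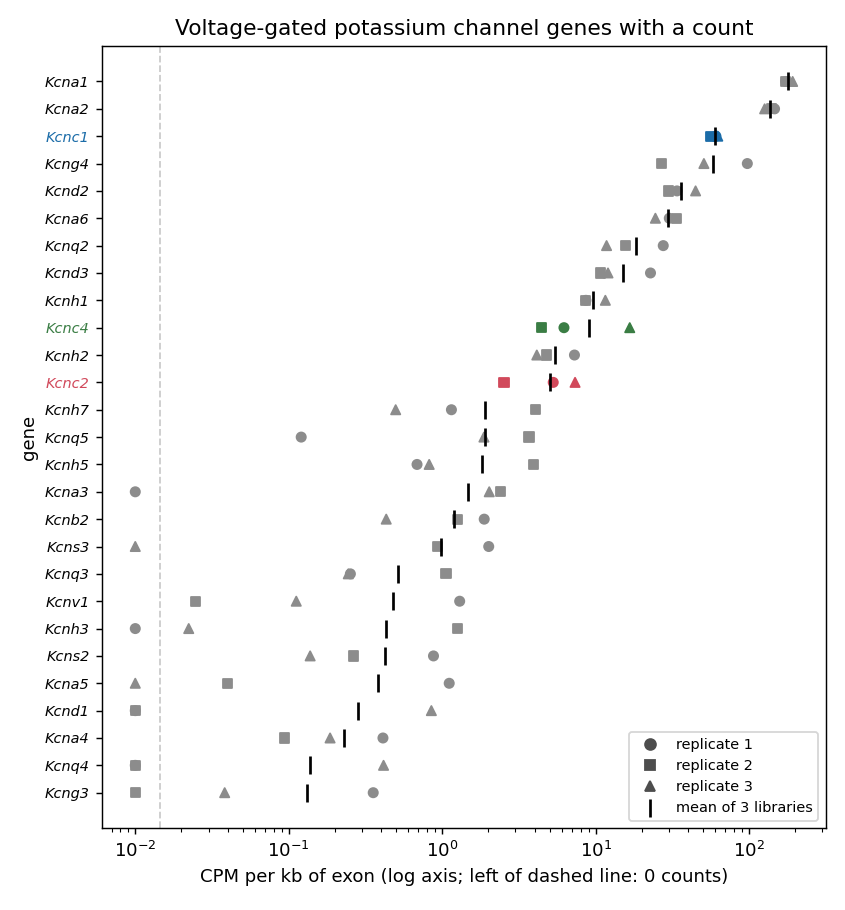
Levels of 27 voltage-gated potassium channel genes with a count in any library, ordered by mean CPM per kb of exon (log axis), with 1 symbol per library and a bar at the mean, and libraries at 0 counts drawn left of the dashed line. Kcnc1 is below Kcna1 and Kcna2 with its 3 libraries between 56.2 and 62.4 CPM per kb, while Kcnc4 (4.46 to 16.7) and Kcnc2 (2.53 to 7.33) lie further down among genes whose ranges overlap theirs.

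Genes of proteins that modify or carry Kv3 channels had counts, and most of those of the KCNE family had none. KCNE proteins are small beta subunits, some of which change Kv3 gating in cultured cells. Of 5 KCNE genes, 4 were at 0 counts in every library, and Kcne1l had 0, 2 and 10 counts in replicates 1, 2 and 3. Of 15 genes for kinases, transport and RNA binding proteins tied to Kv3 channels, 14 reached 10 CPM, of which 10 also reached 100 CPM. The share of all genes at these levels is not given here. The median of the 15 was 48.1 CPM per kb. The list was chosen with earlier results of these data known, so its level is a description. Among the highest of the 15 were the kinesin motor genes Kif5a (149 ± 48.8 CPM per kb) and Kif5c (107 ± 15.7). The protein kinase A gene Prkaca was at 146 ± 39.0 CPM per kb. Prkcb, of the protein kinase C family that phosphorylates Kv3 channels, was at 137 ± 20.8 CPM per kb. Lowest of the 15 was the casein kinase 2 regulatory subunit gene Csnk2b at 0.999 ± 0.764 CPM per kb (2, 24 and 25 counts). Next was Fmr1, whose protein binds the Kcnc1 mRNA, at 5.74 ± 2.12 CPM per kb.

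All 16 genes of the list for fast-spiking excitability reached 10 CPM, and 10 of them reached 100 CPM. The share of all genes at these levels is not given here. The median of the 16 was 33.4 CPM per kb. This list too was chosen with earlier results of these data known, so its level is a description. By mean, Kcnc1, at 59.8 ± 3.21 CPM per kb, lay between Pvalb (72.4 ± 22.0) and the sodium channel gene Scn1a (52.9 ± 9.53). Its mean was within 1 SD of the means of both Pvalb and Scn1a, so this order was not resolved. Among the genes above Pvalb were Nefh (174 ± 9.04 CPM per kb) and the sodium channel gene Scn8a (126 ± 42.9). The lowest of the list were Kcnab1 (13.9 ± 10.3) and the pacemaker channel gene Hcn2 (4.76 ± 4.14). Kcnc4, at 9.11 ± 6.6 CPM per kb, and Kcnc2, at 5.05 ± 2.41, were in the range of these lowest genes.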

How the data were processed

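The authors deposited 1 table per library of raw, unnormalised gene counts. The tools STAR 2.0.0e and HTSeq and the mm10 build are listed in the submitters' processing notes. Which annotation and strand setting they used is not given in the sources used here. HTSeq's summary rows were left out of library sizes and tests. Reads without an annotated feature made up 44.1 to 50.2% of counted reads and ambiguous reads 1.77 to 1.94%. Multiply aligned reads were not counted to genes. One further gene of the family, and some genes that the lists or ranks hold, are not reported here.

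CPM used library sizes scaled by TMM (edgeR 4.0.16, R 4.3.3). Exon lengths, transcripts and coordinates came from GENCODE M21 (mm10), matched by symbol for 23155 of 32531 symbols, and promoters from RefSeq, matched for all 3 genes. Kcnc4's is not printed, since its window lies inside the annotated gene. Spread was tested by a Poisson chi-square test and by edgeR's quasi-likelihood dispersion, both with Benjamini-Hochberg adjustment over all genes tested, and checked on simulated data. Differences used an exact sign-flip permutation test (scipy 1.17.1). Intervals cover counting error only, since reads are not independent molecules. Alternatives were DESeq2 1.42.0 size factors, total counts, other lengths, counts added, filters and leaving out each library.

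The members and lists were chosen with earlier results of these data known. Named genes are the members, up to 5 highest and 2 lowest per kb in each partner list, and the 3 nearest in profile. For the families of other potassium channels, those beside the members in rank are named. Further genes were named to complete a list or to show a marker's values.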

Additional observations from a re-analysis of the deposited data

How the results depend on the processing

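No comparison between groups of samples was possible because the labels give 1 group. The differences between genes were paired within each library. The mean CPM of the 3 genes moved by less than 1 SD under DESeq2 size factors, total counts and filtered scaling. Leaving out each library gave 547 to 583 CPM for Kcnc1, 27.6 to 45.1 for Kcnc2 and 19.3 to 42.0 for Kcnc4. Per kb of exon the mean share was 81.7% for Kcnc1 and 11.6% for Kcnc4. Per kb of the longest coding transcript it was 82.6%, 7.76% and 9.69% for Kcnc1, Kcnc2 and Kcnc4. Kcnc1 exceeded the other genes under every length, added count and left-out library tried (mean log2 differences of 2.59 to 4.31). Kcnc2 minus Kcnc4 changed sign to 0.22 with no length scaling, which leaves the difference in exon length between the genes uncorrected. It was -1.0 to -0.53 with a library left out. For spread, the adjusted p by edgeR's quasi-likelihood dispersion was 0.999, 0.990 and 0.972 for Kcnc1, Kcnc2 and Kcnc4, and 0 genes were called against 10773. That test compares a gene with others of its level, the Poisson test with counting error. Leaving out each library gave an adjusted p of 7.66e-07 to 0.216 for Kcnc1 (0.216 without replicate 2) and ranks of 3 to 4. With 144 to 476 counts a library, depth limits Kcnc2 and Kcnc4 less than the spread between libraries does.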
